A study of Mus musculus with 15 samples.

Results

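Rn45s is the annotated copy of the 45S ribosomal RNA precursor gene, and it was followed here through histone H3 and ACF1 chromatin data from the nucleus accumbens of defeated and control mice. It was chosen as the H3 table rows that name Rn45s, which came to 25 of 88334 rows, and as the ACF1 segments within 10 kb of its bounds, which came to 1 of 1133 segments in susceptible, 1 of 716 in resilient and 1 of 749 in control mice. The gene was chosen by the number and direction of its listed H3 positions and by its ACF1 segments, so its numbers are a description and carry no test. On build mm9 it lies on chromosome 17 from 39979942 to 39985774, on the plus strand, over 5833 bp, under the transcript identifier NR_046233. Which parts of the precursor these bounds take in was not examined, so statements on the whole gene refer to this annotated span.

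The 45S precursor is transcribed by RNA polymerase I in the nucleolus and is cut into the 18S, 5.8S and 28S ribosomal RNAs, and its output bounds how many ribosomes a cell can make. The genes stand in tandem arrays of near-identical copies on several chromosomes, and in one cell some copies are active and largely free of regular nucleosomes while others are silenced in compact chromatin. The ISWI remodeller SNF2H takes part in both states: with TIP5 it forms a complex that silences copies, and with WSTF a complex that aids their transcription. ACF1, encoded by Baz1a, is the partner of SNF2H in the ACF complex, which slides and spaces nucleosomes.

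All mice were C57BL/6. Susceptible and resilient mice had been defeated by aggressive CD1 mice over 10 days and were parted by a social interaction test into avoiding and not avoiding animals, and control mice made up the third group. Per the labels, tissue of susceptible and resilient mice was taken 48 hours after defeat had ended, and no such time was recorded for control mice. Also per the labels, punches of 10 mice were pooled per replicate, and chromatin was sheared for ACF1 or digested with micrococcal nuclease for H3 before immunoprecipitation. Although the labels speak of replicates, each group had 1 sample per target and 1 deposited result, so no value below has a spread between replicates and no p-value was computed.

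The authors' deposited H3 tables give, for each pair of groups, positions selected for an occupancy change, marked Up or Down, and positions selected for a nucleosome shift, in bp. The size of an occupancy change, read counts and the positions that were examined but not selected were not available for this work, and depth is unknown. Which groups a table compares, and in which order, comes from its deposited name. Down was taken as lower in the first-named group; nothing in the tables states this, and with the opposite reading each direction turns round. Tissue was bulk, so a change within cells and a change in the mix of cells cannot be told apart. The tissue label was not checked against marker genes, because selected positions are no measure of expression. Reads from the many ribosomal RNA gene copies share the sequence of this locus, and how the authors placed such reads is not given in the sources used here. Every value at Rn45s is therefore uncertain as to which copies it stands for.

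The first comparison, susceptible against control, asked what differed in defeated animals that avoided others. All listed occupancy positions of Rn45s were Down, that is, lower in susceptible than in control mice. In the authors' deposited table they lay 400, 1210, 1310, 2520, 2980 and 5380 bp after the gene start, at 39980342, 39981152, 39981252, 39982462, 39982922 and 39985322 of chromosome 17. These were 6 Down of 6, where 85.2% of all positions in that table were Down, a share carried by chromosome 1. Outside chromosome 1 it was 59.6%, and on chromosome 17 it was 58.0% (444 of 765). Of genes with at least 5 positions, 70.6% (514 of 728) had Down positions only, and outside chromosome 1 it was 12.6% (13 of 103), Rn45s among them. Of the 6 positions, 5 lay in the first 3 kb of the gene, and the last stood 2400 bp from its neighbour.

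Resilient against control mice, the comparison of defeated animals that did not avoid others with controls, listed more of the gene. Every one of its 9 occupancy positions was Down, lower in resilient than in control mice, where 61.7% of all positions in the table and 66.4% of those on chromosome 17 (508 of 765) were Down. The authors' deposited table put them 400, 1210, 1310, 1550, 2080, 2690, 2980, 3810 and 5380 bp after the gene start. They ran along the gene with gaps of 100 to 1570 bp, the median gap being 570 bp. Genes with Down positions only made up 9.52% (12 of 126) of those with at least 5 positions in this table, and 7.96% (9 of 113) outside chromosome 1.

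Set side by side, both comparisons with controls named the positions at 400, 1210, 1310, 2980 and 5380 bp, each of them Down in both. The position at 2520 bp was Down in susceptible against control mice. The same coordinate was listed as a shift of 60 bp in resilient against control mice. At 3810 bp the listing was the other way about, a shift of 80 bp in susceptible against control mice and Down in resilient against control mice. Positions at 1550, 2080 and 2690 bp were named in resilient against control mice alone among these. Both comparisons rest on the same control sample, so a position named in both is not a second observation, and which of the positions missed selection narrowly in the other table was not tested.

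Between the groups that had both been defeated, resilient against susceptible, the listed positions of Rn45s were fewer and of mixed direction. In the authors' deposited table the positions 2020 and 5100 bp after the gene start (39981962 and 39985042) were Down, lower in resilient mice, and those at 3270 and 5800 bp (39983212 and 39985742) were Up, higher in resilient mice. The count was 2 Down of 4, beside 51.1% Down over the whole table and 53.9% on chromosome 17. None of these 4 coordinates was among those listed in either comparison with controls, the nearest being 2080 bp in resilient against control mice, 60 bp from the one at 2020 bp. Only 1 of the 4 lay in the first 3 kb, against 5 of 6 and 7 of 9 in the comparisons with controls.

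**Figure D1:**
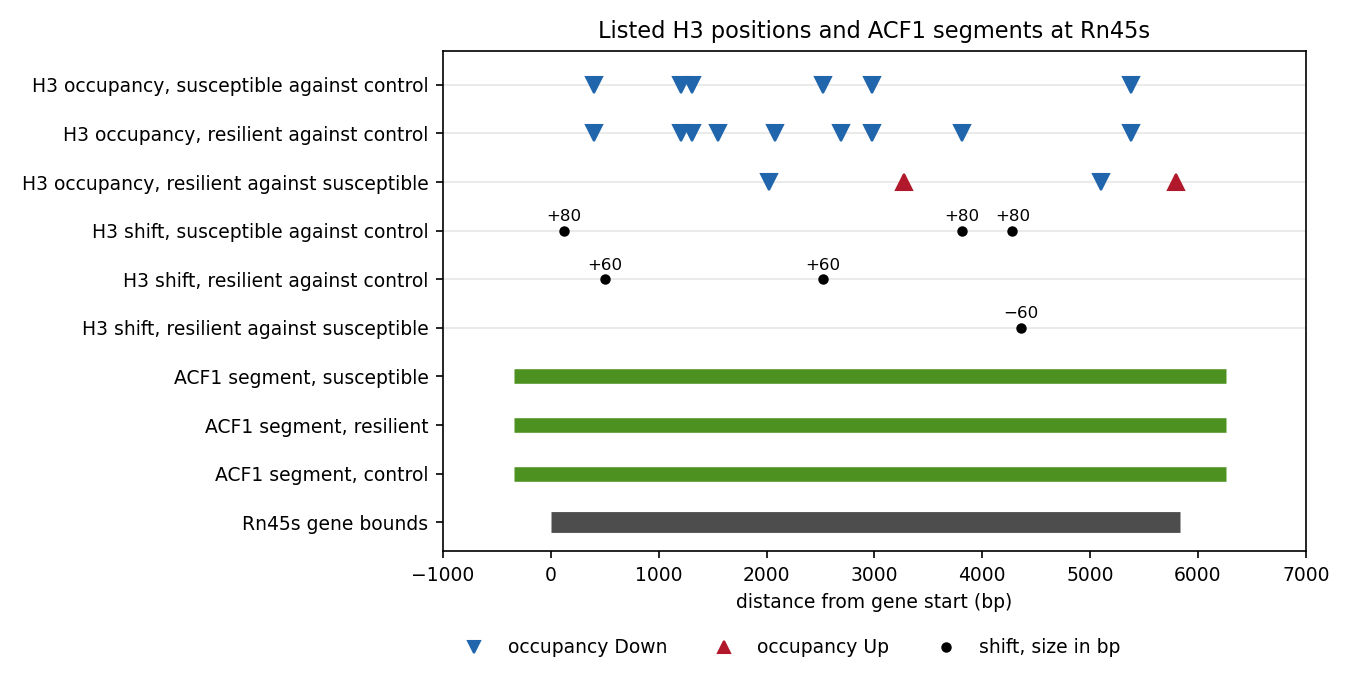
Listed H3 positions of Rn45s in the 6 tables and the ACF1 segments of the 3 groups, by distance from the gene start in bp. Triangles pointing down and up stand for Down and Up occupancy positions, dots for shifts with their size in bp, and bars for segments and for the gene bounds. The comparisons with controls hold Down triangles only (6 and 9), the comparison of resilient with susceptible mice holds 2 of each, and the 3 segments have the same bounds.

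Nucleosome shifts were listed at Rn45s in each comparison, all within the gene. For susceptible against control mice, the authors' deposited table gave 3 shifts of 80 bp, at 120, 3810 and 4280 bp after the gene start. For resilient against control mice, the authors' deposited table gave 2 shifts of 60 bp, at 500 and 2520 bp. For resilient against susceptible mice, the authors' deposited table gave 1 shift of -60 bp, at 4360 bp, which is 80 bp from the one at 4280 bp. Shifts were thus positive in both comparisons with controls, where 53.9% (312 of 579) and 51.6% (281 of 545) of shifts outside chromosome 1 were positive. Which way along the chromosome a positive sign points is not stated in the tables.

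Few genes held shifts at all, and fewer held several. Of the 7815 genes named in any H3 table, 7.31% held a shift in the table of susceptible against control, 1.96% in that of resilient against control and 1.63% in that of resilient against susceptible mice. Outside chromosome 1, 136 of 144 genes with a shift in susceptible against control mice had 1, and 3 genes had more than the 3 of Rn45s. The count for resilient against control mice was 123 of 129 with 1, and 4 genes had more than the 2 of Rn45s. In resilient against susceptible mice 108 of 114 had 1, Rn45s among them, and 6 had more. Genes on chromosome 1 were left out of these counts, and Mroh2a on it held 34 shifts in susceptible against control mice. Sizes of 80 bp or more, as at Rn45s in susceptible against control mice, were listed for 208 of the 579 shifts there.

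Over the 3 occupancy and 3 shift tables, the 25 rows stood at 18 distinct positions, 7 of which were named in 2 tables and none in more. Neighbouring distinct positions were less than 150 bp apart in 4 places, that is, closer than about the DNA that one nucleosome covers. These were 400 and 500 bp, 1210 and 1310 bp, 2020 and 2080 bp, and 4280 and 4360 bp. The pair at 1210 and 1310 bp was Down at both places in both comparisons with controls. The other pairs joined positions of different tables.

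Rn45s was 1 of 11 genes, of 7815 named, that were listed in all 6 H3 tables. The others were Gm13152, Gm13247, Mid1, Nlgn1 and Sfi1 outside chromosome 1, and C130026I21Rik, Mroh2a, Sp110, Sp140 and Ugt1a1 on it. Rn45s was the 1 gene under 6 kb among these 11, and 816 of the 7815 named genes were that short, which is a like share. A position of either direction was held by 60.2% of the named genes for susceptible against control, 49.0% for resilient against control and 45.5% for resilient against susceptible mice, so being named in a single table sets no gene apart.

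Listed positions were dense along the annotated span of Rn45s, but only in resilient against control mice did it hold more than every other gene as short. Rn45s held 1.03 positions per kb in susceptible against control mice, 1.54 in resilient against control mice and 0.686 in resilient against susceptible mice. In that order, other genes of its length or less held at most 6, 3 and 5 positions, beside 6, 9 and 4 at Rn45s. Over the listed genome the same tables held 0.0186, 0.00661 and 0.00613 positions per kb. Positions outside chromosome 1 numbered 16617 of 49408, 16132 of 17538 and 14963 of 16273, so chromosome 1 raised the first value. Among 126 genes with at least 5 positions in resilient against control mice, Rn45s ranked 1, and Sfi1, the gene of a centrosomal protein, came next at 0.373 per kb. In susceptible against control mice it ranked 9 of 728, and 1 of 103 without chromosome 1, where Gm7120 followed at 0.752 and Sfi1 at 0.568 per kb. With every gene that held at least 1 position ranked, it stood at 125 of 4701 in susceptible against control and 11 of 3827 in resilient against control mice. Its 4 positions in resilient against susceptible mice were under the minimum of 5, and there G530011O06Rik came first outside chromosome 1 at 1.29 per kb. Among genes with at least 1 position in that comparison, Rn45s ranked 81 of 3553. Rn45s was chosen by the number of its listed positions, so these ranks are a description only.

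**Figure D2:**
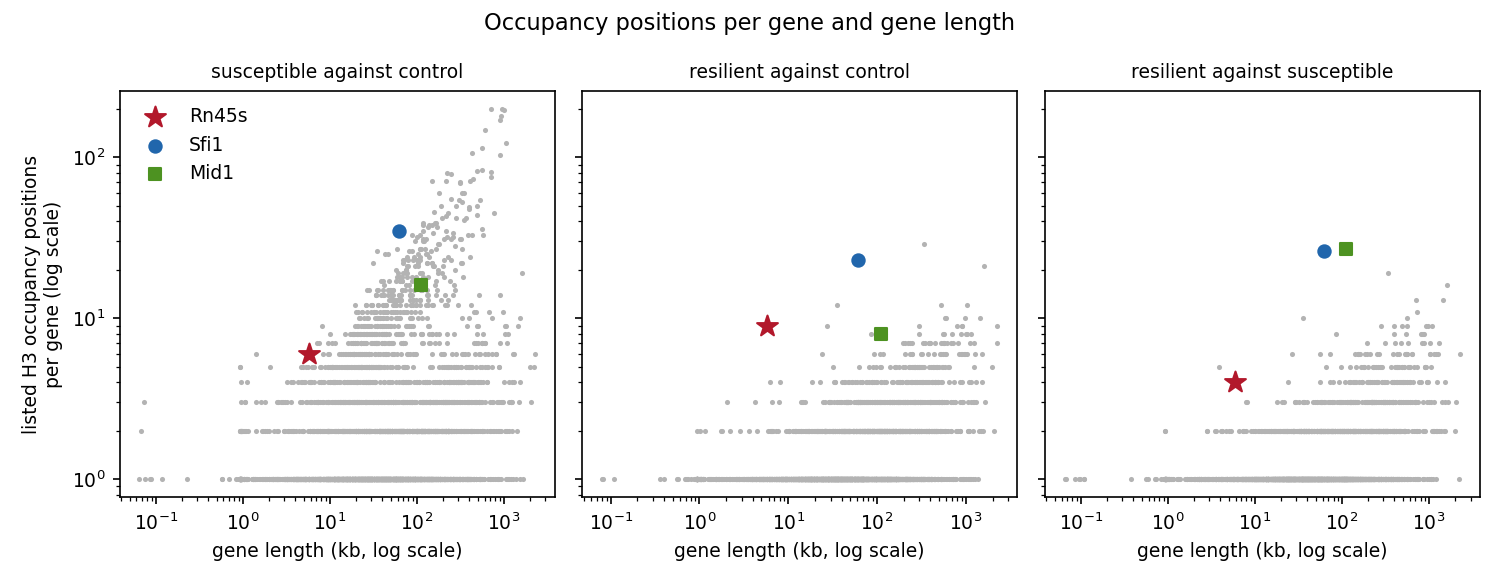
Number of listed H3 occupancy positions per gene against gene length in kb, both on log scales, in the 3 occupancy tables; each grey point is a gene, and Rn45s, Sfi1 and Mid1 are marked. Rn45s, at 5.83 kb, holds 6, 9 and 4 positions, while other genes of its length or less hold at most 6 for susceptible against control, 3 for resilient against control and 5 for resilient against susceptible mice.

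Within 10 kb on each side, the tables together listed 1 further position, Up in susceptible against control mice and 1788 bp after the gene end; at the density of the 3 occupancy tables outside chromosome 1, the same length would hold 0.388. In the other occupancy tables the nearest positions after the gene end were 26788 bp away for resilient against control and 91848 bp for resilient against susceptible mice. Before the gene start, the nearest positions were 16600, 352740 and 121030 bp away in susceptible against control, resilient against control and resilient against susceptible mice. The next genes named in any table were Gm4345, 302150 bp before Rn45s, and Gm17495, 671197 bp after it, with 1 occupancy position each over all tables.

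ACF1 segments covered the whole annotated span of Rn45s in each group, with the same bounds. In the deposited ACF1 files each 200 bp step of the genome has state E1 or E2; the rarer one, E2, is called a segment here, and whether it stands for binding is not stated. In susceptible, resilient and control mice alike, the segment ran from 39979601 to 39986200 of chromosome 17, a width of 6600 bp. It started 341 bp before the gene and ended 426 bp after it, so it took in the annotated start of the gene with its near upstream stretch. It was the 1 segment within 10 kb of the gene in each list. The next segments on the chromosome were 899000, 212400 and 585600 bp before it and 1219600, 1393200 and 544600 bp after it in susceptible, resilient and control mice.

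Identical bounds in every list were not usual. Such segments numbered 112, which is 9.89% of the susceptible, 15.6% of the resilient and 15.0% of the control list, and 5 of them were on chromosome 17. Of these 112, 17 (15.2%) were wider than the one over Rn45s, and of the 72 outside chromosomes X and Y, 3 were wider. Among all segments, that width was exceeded by 13.0% of the susceptible (147 of 1133), 13.7% of the resilient (98 of 716) and 12.0% of the control ones (90 of 749), whose medians were 1000, 1200 and 1000 bp. A state with no score shows no difference in strength, so equal bounds do not show equal ACF1 signal.

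Lying wholly inside a segment was rare among named genes. This held for 0.269% (21 of 7815) in susceptible, 0.141% (11) in resilient and 0.154% (12) in control mice, and for 8 genes in every list. Besides Rn45s these were A530032D15Rik, C130026I21Rik and Sp110 on chromosome 1, Dux and Gm4981 on chromosome 10, Gm15319 on chromosome 8 and Xlr on chromosome X. Any overlap with a segment was found for 2.55%, 1.47% and 1.89% of the named genes in susceptible, resilient and control mice. The median length of named genes was 35.2 kb and segment medians were 1000 to 1200 bp. Gene length therefore limits which genes can lie inside a segment.

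The segment over Rn45s was crowded with H3 positions. It held all 19 occupancy positions of the gene, summed over the 3 tables, and its 6 shifts, which is 2.88 occupancy positions per kb of segment. At least 1 occupancy position was held by 20.1% of the susceptible, 20.8% of the resilient and 20.4% of the control segments. Among segments with at least 5 positions, the one over Rn45s had the most per kb in each list (of 36 susceptible, 28 resilient and 30 control segments), and the next highest had 1.62, 1.84 and 2.08 per kb. By number it ranked 7, 7 and 8, behind wider segments. The segment and its 19 positions are the same in each list, so these ranks are not separate observations. Rn45s was chosen by its H3 positions and ACF1 segments, so the ranks are a description only. ACF1 state and H3 positions come from different libraries, but both read the same repeated sequence, and the part of that in their meeting here was not tested.

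**Figure D3:**
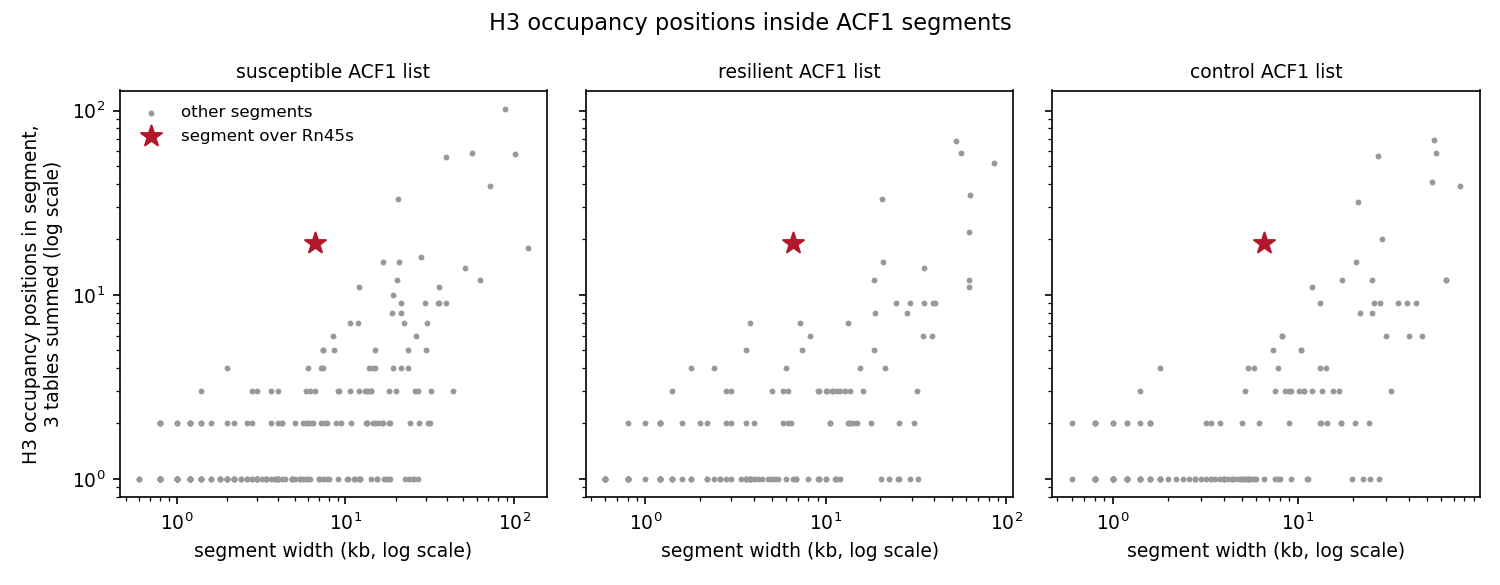
H3 occupancy positions inside each ACF1 segment, summed over the 3 tables, against segment width in kb, both on log scales, for the susceptible, resilient and control lists; segments without a position are not drawn. The star is the segment over Rn45s, with 19 positions in 6600 bp in each list, where other segments of its width or less hold at most 4, 7 and 4.

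Sfi1 and Mid1, the gene of a ubiquitin ligase bound to microtubules, were the loci with many positions and ACF1 segments set beside Rn45s. In susceptible against control mice, where Rn45s had 6 Down of 6 positions, Sfi1 had 11 Down of 35 and Mid1 2 Down of 16. The counts in resilient against control mice were 9 Down of 9 at Rn45s, 22 of 23 at Sfi1 and 8 of 8 at Mid1. Those in resilient against susceptible mice were 2 Down of 4 at Rn45s, 26 of 26 at Sfi1 and 27 of 27 at Mid1. Segments covered 100% of Rn45s in every group, against 100%, 73.8% and 91.9% of Sfi1 and 1.74%, 1.74% and 8.03% of Mid1 in susceptible, resilient and control mice. With 1 table per pair of groups, these differences were not tested.

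Other genes had a like split of directions across the tables. Likeness was the cosine similarity of the 6 numbers of Down and Up positions in the 3 occupancy tables, over 163 other genes with at least 10 positions and not on chromosome 1. Ltbp1, which encodes a latent TGF-beta binding protein and also lies on chromosome 17, came first with 0.996, having 5 Down of 5, 7 Down of 7 and 1 Down of 3 in susceptible against control, resilient against control and resilient against susceptible mice. Shroom3, an actin-binding protein gene, followed with 0.98, then Ntm, a neuronal adhesion gene, with 0.968, and Kcnmb2, a potassium channel subunit gene, and Hydin, a gene of cilia, with 0.967 each. They were 282 to 967 kb long, but the minimum of 10 positions leaves mainly long genes: the median length of the 163 was 424 kb, and 0 of them were as short as Rn45s. The values rest on 10 to 16 positions per gene and are a description only.

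Genes that serve ribosomal RNA synthesis held scattered positions. Of 18 genes of RNA polymerase I transcription, 6 were named in any table, beside 30.4% (6658) of the 21900 protein-coding symbols of the RefSeq table for GRCm38.p6. In susceptible against control mice, Taf1b, a subunit of the promoter selectivity factor SL1, had 1 Down of 2 positions. Ttf1, the factor that binds the terminators of ribosomal RNA genes, had 1 Down of 1, which made 2 Down of 3 for the list, where 59.6% of positions outside chromosome 1 were Down. The list held 0 positions in resilient against control mice, where 49.0% of all named genes held a position. For resilient against susceptible mice, 5 of its 6 named genes held one, beside 45.5% of all named genes. With only 6 named genes, the list was not tested for this difference. It held 3 Down of 5 in resilient against susceptible mice, over the polymerase subunit genes Polr1a (Down) and Polr1b (Up), the SL1 subunit genes Taf1b and Taf1c (both Down) and Tbp (Up), beside 51.2% Down in that table outside chromosome 1.

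Ribosomal RNA processing and ribosome assembly was the largest list, with 12 of 32 genes named, beside 30.4% of all protein-coding symbols. In susceptible against control mice it held 20 Down of 23 positions, but 18 of these were at 5 genes on chromosome 1, where 98.2% of all positions in that table were Down: Ncl, the gene of nucleolin, with 3, Nop58, a core box C/D snoRNP protein gene, with 5, Wdr12 with 6, Rrp15 with 2 and Wdr75 with 2. On other chromosomes it held 1 Down of 2 at Drosha, the microRNA-processing nuclease gene, 1 Down at Heatr1, and 1 Up each at Pes1 and Utp20. For resilient against control mice the list held 4 Down of 4, with 2 at Nol10 and 1 each at Drosha and Utp20, a small-subunit processome gene, beside 61.7% Down in that table. For resilient against susceptible mice it held 4 Down of 5, with Nop2, Pes1, Rrp9 and Utp20 Down and Nol10 Up, beside 51.1% Down in that table.

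Chromatin regulators of ribosomal RNA genes were named for 8 of 18 list members, beside 30.4% of all protein-coding symbols. In susceptible against control mice they held 4 Down of 7 positions, with 1 Down of 1 at Baz1a and at Smarca5, the genes of ACF1 and SNF2H, 1 Down of 2 at Baz2b and at the repair factor gene Ercc6, and 1 Up at the deacetylase gene Sirt1. In resilient against control mice they held 3 Down of 4, with 1 Down of 2 at Baz1a and 1 of 1 at Smarca5 and at Ercc6. In resilient against susceptible mice they held 7 Down of 8, with 2 of 2 at Baz2a, the gene of TIP5, 1 of 1 at Baz1b, the gene of WSTF, 2 of 2 at the DNA methyltransferase gene Dnmt3b, 1 of 1 at Ercc6 and at Sirt1, and 1 Up at Baz2b. Ribosomal protein genes were taken only from the genes named in any comparison, so their 6 members give no share of a wider list. They held 2 Down of 3 positions in susceptible against control mice (Rpl37a and Rpl39l Down, Rps20 Up). In resilient against susceptible mice they held 0 positions, where 45.5% of all named genes held a position, and with 6 genes this was not tested. Leaving out chromosome 1, the 4 lists together had 9 Down of 17, 9 of 11 and 14 of 18 positions over 26 named genes, beside 59.6%, 61.7% and 51.2% Down in the tables. An ACF1 segment overlapped 1 gene of the lists, Baz2b, over 800 bp in control mice, where 1.89% of all named genes overlapped a segment.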

How the data were processed

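Chromatin immunoprecipitated for ACF1 or H3 was sequenced with 100 bp reads, after 19 and 15 PCR cycles, per the labels. CASAVA 1.8.2 and build mm9 are given in the submitters' processing notes; aligner, segmentation program and H3 selection rule were not given in the sources used here. The authors deposited ACF1 states without a score, Up or Down marks for H3 occupancy, and for H3 shifts a signed score in bp (55 to 85 in size). Of 15 samples, the 3 ACF1 and 3 H3 samples had files; SNF2H and input were not analysed here.

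Positions were counted by the gene each row names, and coordinates are 1-based. A gene's length is the span of its bounds over all rows. The authors' class Promoter3k reaches up to 3 kb into genes, so classes were not used to split Rn45s. Segments counted with at least 1 bp of overlap. Counting was tested on simulated rows with planted counts. Named genes were Rn45s, list genes with a position, the 5 most alike, the densest genes, the neighbours, Sfi1 and Mid1; genes in all 6 tables or wholly inside segments were named after their values were seen. The gene and the lists were chosen with earlier results of these data known. Python 3.11.15, numpy 2.4.6, pandas 2.3.3 and matplotlib 3.10.9 were used. The ribosomal protein genes in resilient against control mice are not reported here.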

Additional observations from a re-analysis of the deposited data

How the results depend on the processing

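Of 43 alternative values for 20 results, 38 stayed within 1.5 times the reported number or within the binomial interval of the reported share. Some settings had no room to change a value. No other listed position lay inside the gene bounds, and keeping only gene body and promoter classes left every list count as it was. Intervals of the shares rest on 4 to 9 neighbouring positions, so they are wide and measure no spread between mice. The 38 is therefore no measure of robustness. Taking every position inside the gene bounds, adding 10 kb on each side, or merging positions less than 150 bp apart left the positions of Rn45s at 5 to 7 in susceptible against control, 8 to 9 for resilient against control and 4 for resilient against susceptible mice. With 10 kb on each side, the Down share in susceptible against control mice was 85.7%, against 100% as reported. The Down shares of the other comparisons did not change. The rank by positions per kb in susceptible against control mice was 125 with genes of at least 1 position and 1 without chromosome 1, against 9 as reported; in resilient against control mice it was 11 with genes of at least 1 position, against 1. The move follows from which genes are ranked. At Rn45s the tables of resilient against control and of resilient against susceptible mice had 0 exact positions in common, and 1 when positions within 100 bp or within 150 bp counted. Ranks over the gene body class could not be had, since fewer than 5 positions of Rn45s bear it in any table. Counting shifts with 10 kb on each side was chosen after seeing the data and changed no number. No paired analysis was possible because each group had 1 sample per target and no result came from a test. Unknown depth limits every count, since a position that was not listed may have been too thinly covered to be selected.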
